A study of Mus musculus with 26 samples.

Results

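Hub baits are the captured restriction fragments that touch the most other fragments in mouse embryonic stem cells (ESCs). Promoter capture Hi-C (PCHi-C) enriches ligated DNA for fragments chosen for their promoters, called baits, and lists for each bait the other HindIII fragments it was joined to more often than its distance would give. A hub bait has 25 or more different partner fragments on its own chromosome (cis partners) in the list of wild-type (WT) ESCs, with each pair counted 1 time from whichever end it was listed. Members were thus selected on measured contact counts, and their high count in WT ESCs is a description, not a result. The rule chose 815 of the 16976 baits with at least 1 cis contact in that list (4.80%), out of 19022 baits named in any of the 3 lists. A RefSeq gene start lies in 682 of the 815 (83.7%), against 84.8% of the other baits with a contact, and the rest hold none. Just inside the limit, 62 baits had 25 partners in WT ESCs, with a median of 18.5 partners in epiblast stem cells (EpiSCs) and 16.5 in Nanog-/- ESCs. Just outside it, 70 baits had 24 partners, with medians of 16 and 18.

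The study mapped promoter contacts and RNA in mouse cells of differing pluripotent state, and in ESCs without the transcription factor NANOG. PCHi-C was sequenced in 5 lanes for WT ESCs, 2 for EpiSCs and 5 for Nanog-/- ESCs, which the authors combined into 1 contact list per cell type. RNA-seq of 3 WT, 4 EpiSC and 3 Nanog-/- samples was available as the median of each group. ChIP-seq libraries of EpiSCs were not used here. WT ESCs were the E14Tg2a line, and the Nanog-/- ESCs were the RCNβH-B(t) line made from E14Tg2a and expanded with hygromycin to select Nanog-/- cells, and both grew on gelatin in serum with LIF. EpiSCs were an embryo-derived 129S2 line on fibronectin in N2B27 with Activin A and bFGF. Cell state, line, strain and culture therefore cannot be told apart between EpiSCs and WT ESCs, each being 1 line. The sample labels call the strain C57BL/6, whereas the growth protocol gives 129 strains.

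A promoter can be brought near distant enhancers and other promoters by chromatin looping, which cohesin and the DNA-binding protein CTCF help to shape. In ESCs, silent developmental genes such as the Hox genes carry Polycomb proteins and contact each other, while expressed genes contact enhancers. Naive ESCs and primed EpiSCs stand for the epiblast before and after implantation, and NANOG is a core factor of the naive state.

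The RefSeq promoters of the hub baits with the most partners are shown because these baits have the highest contact counts. Each is the 250 bases before the gene's start in GRCm38.p6, written from 5′ to 3′ on the gene's strand, with CG dinucleotides in capitals. They lie at chr7:30763506-30763755 on the plus strand (Dmkn), chr12:21286285-21286534 on the minus strand (Itgb1bp1), chr7:30856179-30856428 on the minus strand (Ffar3) and chr7:30671606-30671855 on the minus strand (4930479M11Rik). The Dmkn window begins outside its bait, which starts at base 30763637 at a HindIII site inside the window, and the other windows lie within their baits.
Dmkn: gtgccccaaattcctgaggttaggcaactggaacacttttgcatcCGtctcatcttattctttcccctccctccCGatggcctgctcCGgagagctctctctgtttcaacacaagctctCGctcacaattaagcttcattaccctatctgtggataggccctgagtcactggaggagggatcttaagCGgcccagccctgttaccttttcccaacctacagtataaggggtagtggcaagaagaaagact
Itgb1bp1: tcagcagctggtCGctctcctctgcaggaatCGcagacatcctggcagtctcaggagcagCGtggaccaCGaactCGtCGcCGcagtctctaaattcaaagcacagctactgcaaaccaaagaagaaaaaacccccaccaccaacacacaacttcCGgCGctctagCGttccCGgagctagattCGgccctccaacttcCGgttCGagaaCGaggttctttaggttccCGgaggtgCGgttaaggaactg
Ffar3: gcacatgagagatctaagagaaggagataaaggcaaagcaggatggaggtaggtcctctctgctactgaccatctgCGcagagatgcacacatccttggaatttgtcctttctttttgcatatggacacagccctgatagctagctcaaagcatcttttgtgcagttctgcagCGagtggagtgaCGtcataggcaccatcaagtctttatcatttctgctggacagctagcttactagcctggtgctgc
4930479M11Rik: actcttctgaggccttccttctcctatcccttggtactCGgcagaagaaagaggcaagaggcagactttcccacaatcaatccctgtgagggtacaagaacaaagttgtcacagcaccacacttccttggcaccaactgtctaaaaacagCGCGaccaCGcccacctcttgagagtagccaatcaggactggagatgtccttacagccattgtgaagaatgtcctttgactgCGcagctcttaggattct
The Itgb1bp1 promoter holds 17 CG dinucleotides, against 5 for Dmkn, 3 for Ffar3 and 5 for 4930479M11Rik. Its ratio of observed to expected CG is 0.897, and those of the other promoters are 0.319, 0.209 and 0.328. The short motifs searched on both strands were the GC box GGGCGG, the TATA box letters TATAAA and part of the CTCF motif, AGGGGGC, which can overlap the GC box. None is in these 4 windows. Among 10068 promoters of 300 bases that start inside a bait with a contact, 52.1% hold GGGCGG, 11.6% hold TATAAA and 14.6% hold AGGGGGC. A promoter starting inside the bait was found for 484 of the 814 named hub genes (59.5%), under the 80% needed, so a comparison of hub promoters with others is void. The whole baited fragments could all be read: their median GC content was 50.5% for hubs and 47.4% for other baits with a contact, and the median CG ratio was 0.292 and 0.291. Baits with 20 to 24 partners had a median GC content of 49.5%.

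The cells were checked against markers of their state, in RPKM, which scales the reads of a gene by its length and by library size. EpiSC values carry a general shift: over the 11066 genes at 1 RPKM or more in any group, the median log2 difference from WT ESCs was 0.85, against 0.068 for Nanog-/- ESCs. Counts of 2-fold differences in EpiSCs are therefore also given after subtracting it. Over all genes 30.1% were higher and 5.78% lower in EpiSCs by 2-fold or more, or 9.95% and 14.4% after the subtraction. In Nanog-/- ESCs 1.69% were higher and 1.35% lower. Nanog RNA was 418 RPKM in WT ESCs, 361 in EpiSCs and 22.3 in the Nanog-/- line, and which part of the gene the remaining reads cover was not examined. Of 12 naive markers, 9 were in the table, with summed levels of 1477, 426 and 815 RPKM, and the most abundant was Nanog in WT ESCs and EpiSCs and Klf2 in Nanog-/- ESCs (244 RPKM). In EpiSCs 8 of the 9 were lower by 2-fold or more (9 after the subtraction), and Nr0b1 was listed at 0. In Nanog-/- ESCs 3 of the 9 were lower by 2-fold or more, namely Klf4, Dppa3 and Nanog itself. The fall of Nanog is set by the genotype, and it also enters the summed level of the Nanog-/- line. All 9 primed markers were measured, summing to 326, 1315 and 269 RPKM, with T the most abundant in EpiSCs (444) and Dnmt3b in WT and Nanog-/- ESCs (210.2 and 183), and 6 were higher in EpiSCs by 2-fold or more (4 after the subtraction), while 4 were lower in Nanog-/- ESCs. The 6 general pluripotency genes summed to 2489, 2331 and 2609 RPKM, led by Pou5f1, and 2 of them were lower in EpiSCs by 2-fold or more (3 after the subtraction): Dppa4 had 167 RPKM in WT ESCs and 1.499 in EpiSCs, Sox2 had 397 and 137, and Utf1, lower only after the subtraction, had 445 and 262. Primitive endoderm markers were higher by 2-fold or more in Nanog-/- ESCs in 6 of 6 cases. In EpiSCs 4 were higher, and after the subtraction 4 were higher and 1, Gata4, was lower. They summed to 4.59 RPKM in WT ESCs, 43.8 in EpiSCs and 76.1 in the Nanog-/- line. Dab2, Sox17 and Gata4 were the most abundant in that order of groups (1.47, 12.6 and 18.5 RPKM), and none was at 0. Fibroblast markers were higher in EpiSCs in 5 of the 5 measured (4 after the subtraction), summing to 45.5, 401 and 56.6 RPKM, with Col1a1 the most abundant in EpiSCs (137), Thy1 in WT and Nanog-/- ESCs (20.5 and 25.7), and none at 0. The 4 measured trophoblast markers summed to 2.91, 6.01 and 7.96 RPKM, led by Krt7 in WT ESCs and EpiSCs and by Hand1 in Nanog-/- ESCs (4.49). Among neural markers, Nes had 11.8, 271 and 12.6 RPKM, Tubb3 had 77.1, 18.1 and 34.8, and Pax6 had 1.45, 2.02 and 1.74. The part of such other cells in the contact and RNA differences was not tested.

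Baits were matched to these lists by the 1 gene name that the lists give a hub bait, although 167 hub baits (20.5%) hold more than 1 RefSeq gene start. Of 27 pluripotency markers, 24 name a bait, and 0 of these baits is a hub, where hubs are 4.80% of all baits with a contact. Of 50 markers in all, 43 name a bait, and 1 of these baits was a hub, that of Cdx2, a trophoblast regulator, with 26 partners in WT ESCs, 18 in EpiSCs and 21 in the Nanog-/- line and 0.466, 0.781 and 1.72 RPKM. The Nanog bait itself had 20, 12 and 11 partners. Of 31 Polycomb subunits 27 name a bait, and of 16 loop architecture genes 11 do, among them Ctcf and Rad21, and 0 of these baits is a hub. At a share of 4.80%, lists this short would hold few hubs, so these counts say little about the lists. The 28 measured Polycomb genes summed to 1882 RPKM in WT ESCs, 2187 in EpiSCs and 2098 in the Nanog-/- line, and the 11 measured loop genes to 713, 1240 and 757. In EpiSCs 5 of the 11 loop genes were higher by 2-fold or more (30.1% of all genes), and 0 after the subtraction (9.95% of all genes). Of the 28 Polycomb genes 11 were higher there (30.1% of all genes) and 0 lower (5.78%). After the subtraction 5 were higher (9.95% of all genes) and 6 lower (14.4%).

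Hub baits made up 4.80% of baits with a contact but took part in 27667 of the 99706 cis contacts in WT ESCs (27.7%). The median hub had 32 partners (quartiles 28 and 40), and the median of the other baits with a contact was 4. The read pairs summed over listed contacts differed between cell types: 2177383 in the WT list, 1651422 in the EpiSC list and 1440356 in the Nanog-/- list. Total library depths were not given. Cis contacts numbered 99706, 86981 and 74585, and baits with 25 or more partners numbered 815, 554 and 454 in the same order. Every listed contact has a CHiCAGO score of 5 or more, so a contact missing from a list may still have a lower score. The score is a transform of the caller's weighted p value against the distance background, and is higher for smaller p values. The number of hubs depends on how contacts are counted: 154 baits reached 25 with scores of at least 7, 441 with at least 10 reads, and 152 when a run of adjacent partner fragments counted as 1. A hub's partners formed a median of 19 such runs.

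Dmkn, which encodes the secreted skin protein dermokine, had the most partners. Its bait at chr7:30763637-30765083, which overlaps exons and the start of Dmkn, had 105 partners in WT ESCs, 92 in EpiSCs and 84 in the Nanog-/- line, and 77 and 74 of its WT contacts were also listed in the other cells. Its highest-scoring contact joined it to the fatty acid receptor gene Ffar1, 96.1 kb away, with 32 read pairs in WT ESCs (score 31.6), 54 in EpiSCs (58.9) and 18 in the Nanog-/- line (25.3). Of its partners, 35 are baits themselves. Ffar3, a receptor for short-chain fatty acids in the same neighbourhood (chr7:30855881-30859253), had 92 partners in WT ESCs, 84 in EpiSCs and 63 in the Nanog-/- line. The neighbouring baits 4930479M11Rik, Gm17077 and Arhgap33, a GTPase-activating protein, had 85, 76 and 72 partners in WT ESCs. Thus 5 of the 20 baits with the most partners come from 1 stretch of chromosome 7. RNA of Dmkn was 0.557 RPKM in WT ESCs, 1.37 in EpiSCs and 0.975 in the Nanog-/- line, and Ffar3 was listed at 0, 0 and 0.222.

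Itgb1bp1, which encodes a binding partner of the integrin beta tail, was second and behaved differently. The bait at chr12:21285222-21291864 also holds the start of Cpsf3, a subunit of the mRNA 3′ processing machinery. It had 101 partners in WT ESCs, 19 in EpiSCs and 62 in the Nanog-/- line, and kept 18 (17.8%) and 61 (60.4%) of its contacts. Only 5 of its partners are baits, and 4 baits lie within 500 kb of it, against 48 around Dmkn. Its gene was measured at 14.1, 25.6 and 16.8 RPKM, and the log2 difference in EpiSCs, 0.82, is within the general shift of 0.85. Its neighbour Iah1, an esterase gene, went from 46 partners in WT ESCs to 3 in EpiSCs and 28 in the Nanog-/- line.

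Keratin and Hox baits were 6 of the 20 hubs with the most partners. Krt23 on chromosome 11 had 75, 33 and 59 partners in WT ESCs, EpiSCs and Nanog-/- ESCs, and on chromosome 15 Krt73 had 73, 51 and 70, Krt78 had 69, 46 and 65, and Krt75 had 68, 48 and 66. Hoxc5 and Hoxc11, which pattern the body axis, had 68 and 67 partners in WT ESCs, 64 and 47 in EpiSCs, and 71 and 58 in the Nanog-/- line. Hoxc5 kept 58 of its contacts in EpiSCs and 61 in Nanog-/- ESCs, the highest share of the 20 in both lists. Kcnn3, a calcium-activated potassium channel gene, had 72, 61 and 71. S100a14, a calcium-binding protein gene, had 66, 41 and 48. A bait without a RefSeq gene in it, named 0610010O12Rik, had 83, 30 and 33. The adjacent small nucleolar RNA baits SNORD121A.2 and SNORD121A.1 lie in Ubap2 and had 73 and 72 partners in WT ESCs, 40 and 53 in EpiSCs, and 35 and 41 in the Nanog-/- line. A bait named 1810006K21Rik with the start of Fen1, the flap endonuclease gene, had 72, 41 and 33. Abt1, a basal transcription gene beside histone genes on chromosome 13, had 71, 28 and 33. The noncoding A730018C14Rik had 69, 65 and 73, and it and Hoxc5 were the 2 baits of these 20 with more partners in Nanog-/- ESCs than in WT ESCs.

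**Figure D1:**
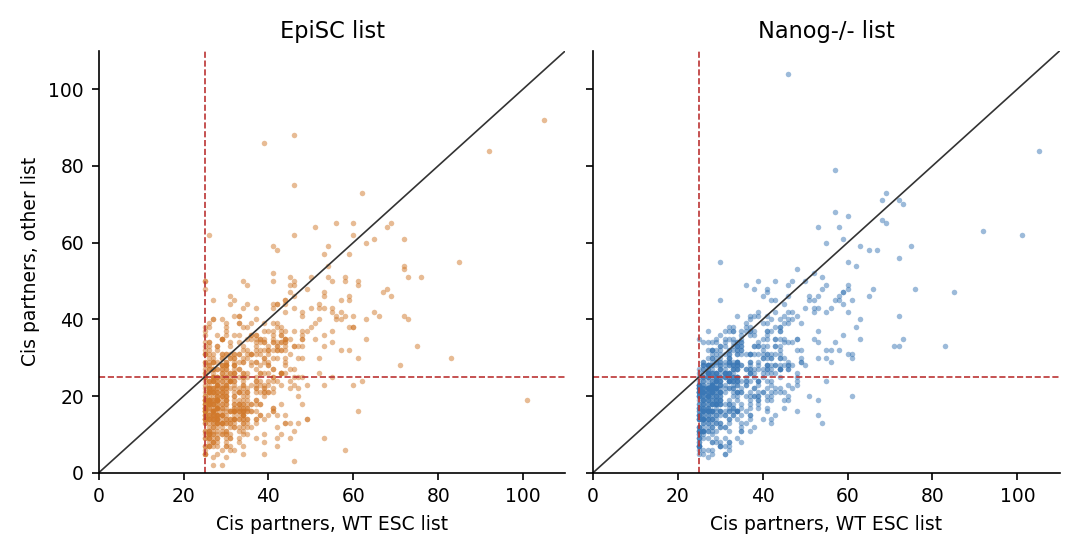
Cis partners of each of the 815 hub baits in the WT ESC list (horizontal axis) against its partners in the EpiSC list (left) and the Nanog-/- list (right); each point is a bait, the solid line marks equal counts and the dashed lines mark 25. Most points lie under the line of equal counts, with 109 baits above it in EpiSCs and 86 in Nanog-/- ESCs; the baits were chosen on high WT counts.

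Every hub bait kept at least 1 contact in each of the other cell types. In EpiSCs 13433 of the 27667 hub contacts were listed again, 48.6% (Wilson 95% interval 48.0 to 49.1), against a background of 39.6% over all cis contacts of WT ESCs and 36.2% over contacts without a hub. In Nanog-/- ESCs 14500 were listed again, 52.4% (51.8 to 53.0), against a background of 41.9% and 37.8% without a hub. In all, 33.9% of hub contacts were kept in both lists and 32.9% in neither, whereas 47.5% of the other contacts were in neither. These intervals cover counting error only. There were no replicate lists, so the spread between replicates is unknown, and the differences were not tested. Allowing a contact with the next fragment to count would give 65.7% and 69.1%. The order of the cell types turned when only contacts with at least 10 reads were used, with 47.8% kept in EpiSCs and 45.6% in Nanog-/- ESCs, and when contacts under 50 kb were left out, with 48.4% and 47.1%.

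Per bait, the median share kept by hubs was 48.3% in EpiSCs and 52.9% in Nanog-/- ESCs. For baits with 20 to 24 partners it was 45.5% and 50%, so shares near these were not particular to hubs. Just outside the limit, at 24 partners, the medians were 43.75% and 50%, and at 25 partners they were 48% and 44%. The median hub kept 15 contacts in EpiSCs and 18 in Nanog-/- ESCs. Its total number of partners was a median of 23 in EpiSCs and 24 in Nanog-/- ESCs, since hub baits also had contacts that WT ESCs lacked: 6286 of 19719 in EpiSCs (31.9%) and 5577 of 20077 in Nanog-/- ESCs (27.8%). With 25 or more partners as the measure, 367 of the 815 were also hubs in EpiSCs (45.0%; 3.26% of all baits with a WT contact are) and 399 in Nanog-/- ESCs (48.96%; 2.67% of all). There were 244 hubs in all 3 lists (29.9%) and 293 in WT ESCs alone (36.0%). In the plot of partners in each list, the baits that are no longer hubs are the points under the dashed horizontal line. Members were chosen on high WT counts, so the count was also made from the other side: of the 554 hubs of the EpiSC list, 367 (66.2%) were hubs in WT ESCs, and of the 454 hubs of the Nanog-/- list, 399 (87.9%). More partners in WT ESCs than in their own list were found for 244 of the EpiSC hubs (44.0%) and 291 of the Nanog-/- hubs (64.1%). Seen from those lists, 57.5% of the contacts of EpiSC hubs were also in WT ESCs (45.4% of all EpiSC contacts), and 69.6% of those of Nanog-/- hubs (56.0% of all).

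Contact score and distance also differed between hubs and other baits. The median score was 7.19 for hub contacts and 6.32 for others, and the median distance was 153 kb (151 to 155) and 133 kb (131 to 134). Contacts were therefore compared within ranges of score and distance. At scores from 5 to under 6, 27.6% of hub contacts and 22.3% of others were kept in EpiSCs, and 30.7% and 23.5% in Nanog-/- ESCs. At scores of 12 or more the shares were 84.9% and 82.4% in EpiSCs, and 88.3% and 82.3% in Nanog-/- ESCs. By distance, the Nanog-/- list kept 80.6% of hub contacts under 50 kb, 54.1% from 50 to 200 kb, 36.6% from 200 to 800 kb and 11.8% (8.60 to 16.1) over 800 kb. The EpiSC list kept 57.7%, 50.4%, 42.1% and 26.8% (22.0 to 32.2) over the same ranges. Hub contacts up to 200 kb were thus kept more in Nanog-/- ESCs and longer ones more in EpiSCs. For the other contacts the shares over the same ranges were 68.6%, 35.3%, 17.6% and 10.1% in Nanog-/- ESCs and 46.5%, 37.1%, 27.4% and 22.8% in EpiSCs, so that EpiSCs kept more of them already from 50 to 200 kb. Over 800 kb the intervals of hub and other contacts overlapped.

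**Figure D2:**
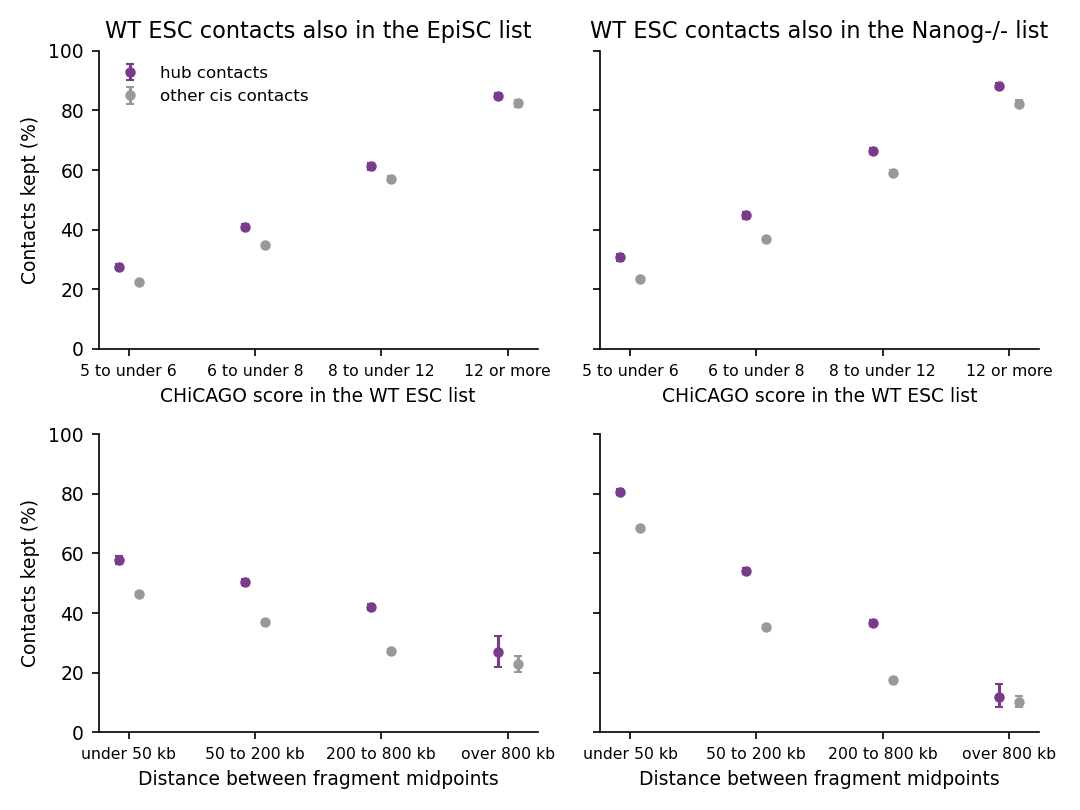
Percent of WT ESC contacts also in the EpiSC list (left) and the Nanog-/- list (right), by CHiCAGO score (top) and by distance between fragment midpoints (bottom), for hub contacts (purple) and other cis contacts (grey); bars are Wilson 95% intervals. Purple points lie above grey ones in each range, from 27.6% against 22.3% at the lowest scores in EpiSCs, with overlapping intervals over 800 kb.

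In EpiSCs the highest shares were 96% of 25 contacts for the small nucleolar RNA bait SNORD127.1, 93.8% of 32 for Nfkbia, the inhibitor of NF-kappa-B, 92% of 25 for the calcium channel gene Cacna1i, 90.2% of 41 for the transcriptional repressor gene Bhlhe40, and 88.1% of 42 for SNORA17.80. Bhlhe40 had 59 partners in EpiSCs and 19 in Nanog-/- ESCs, where it kept 39.0%, while Nfkbia kept 75% there and Cacna1i 64%. The lowest shares in EpiSCs were 1 of 29 contacts for U6.199 in the keratin region, 1 of 27 for U6.695, 2 of 46 for Iah1, 2 of 31 for Gm1965 and 4 of 58 for Slc6a18, a transporter gene. Slc6a18 kept 29 of its 58 in Nanog-/- ESCs, and U6.695 kept 14 of 27. Gm1965 was low in both, with 1 contact kept in Nanog-/- ESCs.

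Among the hubs in Nanog-/- ESCs, Zbtb4, a zinc finger repressor of methylated DNA, kept 29 of 30 contacts and had 55 partners. BC030499 kept 25 of 26, Accn2, an acid-sensing channel gene, kept 26 of 28, Slc35b2, a sulfate donor transporter gene, kept 25 of 27, and Mir196a-2, a microRNA of the Hoxc locus, kept 52 of 57. In EpiSCs Slc35b2 kept 7 of its 27, while the other 4 kept from 56.1% (Mir196a-2) to 70% (Zbtb4). Besides Gm1965, the lowest shares in Nanog-/- ESCs were 3 of 27 for the splicing gene Smu1, 3 of 26 for the kainate receptor gene Grik3, 3 of 26 for Olfr633, an olfactory receptor gene, and 4 of 32 for Lamp3, a lysosomal membrane protein gene. Grik3 had 32 partners in EpiSCs and kept 17 there. The median distances of these last 4 ranged from 186 kb to 361 kb, and those of the 5 best-kept baits from 52.7 kb to 146 kb.

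The hubs with the largest gains in partners were looked up after their values were seen. In EpiSCs, Myod1, the muscle determination factor, had 86 partners against 39 in WT ESCs and 33 in Nanog-/- ESCs. Fam120b had 88 against 46, Capn8 62 against 26, Kif26a 75 against 46 and Pex26 50 against 25. In Nanog-/- ESCs, Cyp2d26 on chromosome 15 had 104 partners against 46 in WT ESCs and 27 in EpiSCs, the most of any bait in that list. Zbtb4 followed with 55 against 30 and Mir1941 with 79 against 57. In the list where they gained, these 8 baits kept from 18 WT contacts (Capn8) to 42 (Mir1941).

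Hub baits were unevenly spread over the chromosomes. Chromosome 7 held 116 of them, 8% of its baits with a contact (6.71 to 9.51), and chromosome 11 held 106 (6.97%). Chromosome 15 held 56 (8.15%) and chromosome 17 held 62 (8.30%), while chromosome 9 held 19 of 1000 (1.90%). Chromosome X held 1 of 370 (0.270%), Efnb1, an ephrin ligand gene named here after its value was seen. Chromosome X took 0.730% of listed read pairs in WT ESCs, 1.77% in EpiSCs and 0.472% in the Nanog-/- line, and the sex of the EpiSC line was not given. The share of hub contacts kept in EpiSCs ran from 37.8% on chromosome 5 to 59.6% on chromosome 9 among the autosomes. Over all contacts of these chromosomes it was 34.9% and 40.6%. The Nanog-/- share ran from 35.8% on chromosome 18 to 62.1% on chromosome 15, where 32.5% and 49.4% of all contacts were kept.

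**Figure D3:**
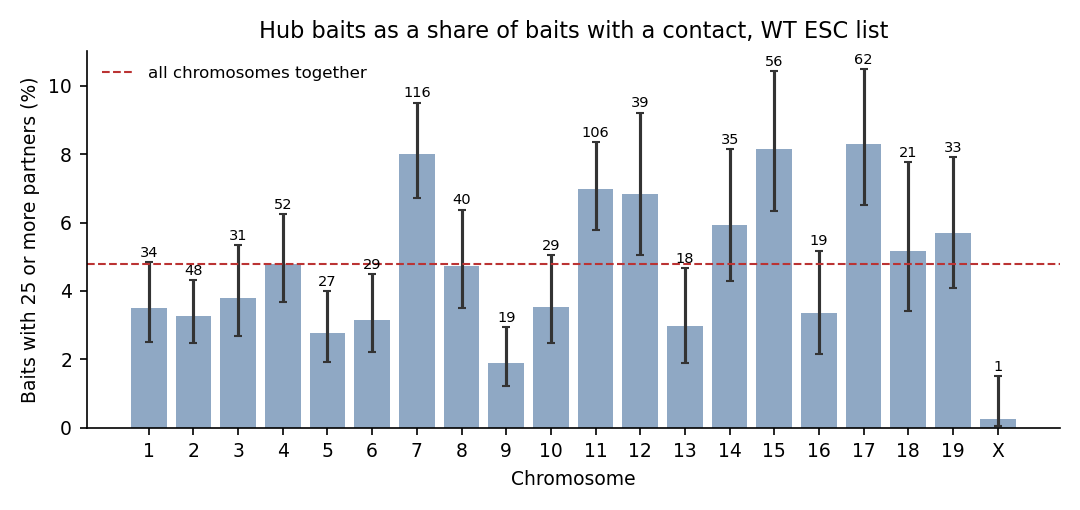
Percent of baits with a cis contact that are hub baits, by chromosome, in the WT ESC list; bars carry Wilson 95% intervals, numbers are hub counts, and the dashed line is the share over all chromosomes, 4.80%. Chromosomes 17, 15, 7 and 11 have the highest shares, and chromosomes 9 and X the lowest.

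Within chromosomes the hubs lay in groups. Another hub was within 1 Mb of 703 hub baits (86.3%), and a hub was within 1 Mb of 47.4% of the other baits with a contact. Joining neighbours up to 1 Mb apart gave 246 groups, of which 112 were single hubs and 18 held 10 or more, with 280 hubs together. Baits were also denser around hubs, with a median of 24 baits within 500 kb against 14 for the others, while HindIII fragments were not, with 279 against 299. Baits with 20 to 24 partners had medians of 22 baits and 282 fragments, so these values were not particular to hubs. The part of bait density in the clustering was not tested. The 5 clusters with the most hubs held 123 of them (15.1%).

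The cluster with the most hubs, at chr11:97495750-101122855, held 40 hubs among 160 baits with a contact. It spans the type I keratin and keratin-associated protein genes of hair and skin, among them Krt26, Krt23, Krt39, Krt33a, Krt33b, Krt31, Krt35, Krt36, Krt15, Krt9, Krtap3-3, Krtap1-4 and Krtap17-1, with Neurod2, a neuronal factor, and Gjd3, a connexin, at one end. Its hubs kept less than hubs as a whole: 376 of 1304 contacts in EpiSCs (28.8%) and 466 in Nanog-/- ESCs (35.7%). The median hub there had 39.5 partners in WT ESCs, 18.5 in EpiSCs and 20 in the Nanog-/- line. Inside it, 33 hubs over 863 kb were linked to each other by 309 of 528 possible hub pairs (58.5%), the linked group with the most hubs. The fragment chr11:99984242-99988569, the bait Gm11570 over Krtap16-1, was a partner of 28 hubs, more than any other fragment.

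The second cluster, at chr15:101368088-103021040, joined 16 hubs of the type II keratin region with 10 hubs of the Hoxc locus. The 16 hubs on the keratin side, among them Krt81, Krt86, Krt84, Krt82, Krt75, Krt74, Krt73, Krt77, Krt76, Krt79 and Krt78, were linked by 91 of 120 possible hub pairs. The Hoxc side, from Hoxc12 to Hoxc4, had 44 of 45. The cluster kept 628 of 1159 contacts in EpiSCs (54.2%) and 763 in Nanog-/- ESCs (65.8%), and its median hub had 51.5 partners in WT ESCs, 36 in EpiSCs and 48.5 in the Nanog-/- line. Both shares kept were above those of the chromosome 11 cluster. They pool the keratin and Hoxc sides, and the keratin side was not counted alone.

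The third, at chr7:30291266-31152823, is the neighbourhood of Dmkn. Here 21 of 48 baits with a contact were hubs (43.8%), linked by 105 of 210 possible pairs. They include Ffar1 and Ffar3, the gastric proton pump gene Atp4a, the H3K4 methyltransferase gene Wbp7, the ion transport regulators Fxyd3 and Fxyd7, the signalling adaptor gene Hcst and Sbsn, an epidermal gene. The cluster kept 48.4% of 972 contacts in EpiSCs and 56.4% in Nanog-/- ESCs. The fourth, at chr17:34260713-35867179, covers the class III region of the major histocompatibility complex with 19 hubs, such as the complement gene Cfb, the channel gene Clic1, Abhd16a, Prrc2a and Nfkbil1, and at its edge H2-Ab1, an antigen-presenting class II gene. It kept 47.5% of 581 contacts in EpiSCs and 66.6% in Nanog-/- ESCs. The fifth, at chr11:69154761-70672814, has 17 hubs, among them the lipoxygenase genes Alox12b, Alox8 and Alox12, the translation factor gene Eif5a, Fxr2 and Zbtb4. It kept 54.2% of 555 contacts in EpiSCs and 62.2% in Nanog-/- ESCs.

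**Figure D4:**
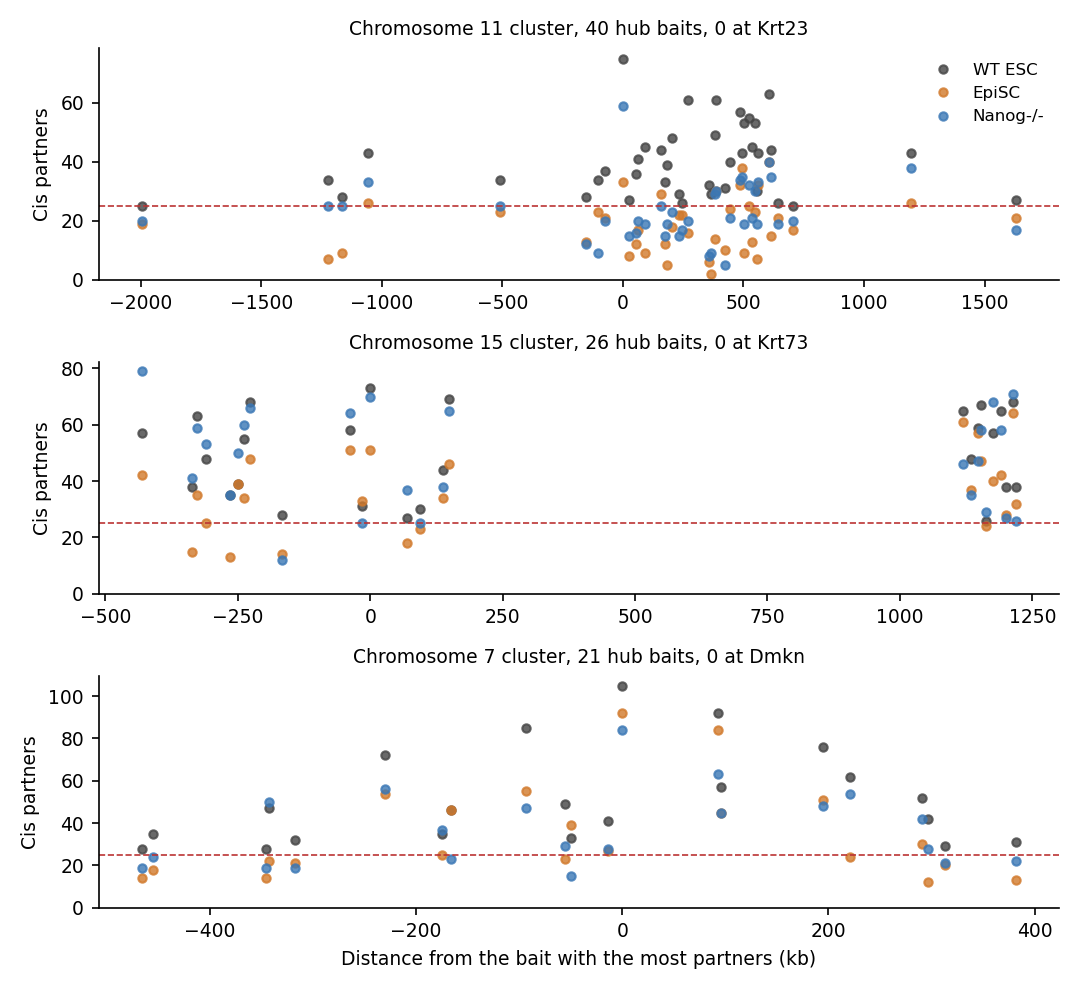
Cis partners of each hub bait in the 3 clusters with the most hubs, in the WT ESC (grey), EpiSC (orange) and Nanog-/- (blue) lists, against distance in kb from the cluster's bait with the most partners; each point is a bait in 1 list and the dashed line marks 25. In the chromosome 11 cluster the medians are 39.5, 18.5 and 20 partners, and in the chromosome 15 cluster they are 51.5, 36 and 48.5.

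Hubs contacted each other and shared partners. A baited partner stood at the other end of 6889 hub contacts (24.9%; 23.3% of all cis contacts), and 1291 contacts joined a hub to a hub. These links connected 567 of the 815 hubs, in 131 groups, and left 248 without a hub partner. Hub-to-hub contacts were kept more often than hub contacts as a whole, 59.3% in EpiSCs and 71.0% in Nanog-/- ESCs, and their median score was 8.84. Hub contacts with any baited partner were kept in 51.5% and 59.3% of cases, and those with a partner without a bait in 47.6% and 50.1%. A pair of baits can be listed from both ends, and its higher score was then used. Hub baits had 17482 different partner fragments, 5391 of which (30.8%) were partners of more than 1 hub. Of the 13887 partner fragments without a bait, 43.8% overlapped exons, 28.1% introns alone and 28.1% no gene, against 40.1%, 29.0% and 30.9% for partners of the other baits. Of the hubs, 207 (25.4%) had 90% or more of their contacts on 1 side.

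Long contacts were few. Of the hub contacts, 287 (1.04%) spanned over 800 kb, against 1.40% of the other contacts, and they came from 80 hubs. Abt1 alone had 33, Btn2a2 had 20 and Zfp184 had 18, in the histone gene region of chromosome 13, and Cadm3 on chromosome 1, an adhesion molecule gene, also had 18. These hubs and the following contacts were picked after their values were seen. Fev, a serotonin neuron factor, contacted Pax3, a neural crest factor, over 3.31 Mb with 10 read pairs in WT ESCs (score 27.4) and 5 in EpiSCs (9.23). Lhx5, a forebrain factor, contacted Hrk over 2.26 Mb in all 3 lists, with 14, 7 and 5 read pairs. Foxd2 contacted the 3010003L10Rik bait over 4.93 Mb with 8 read pairs in WT ESCs only. The Hoxa locus baits 2700086A05Rik, Hoxa11as and Evx1 each contacted fragments at or beside Vax2os1, 31.4 to 31.5 Mb away, with 3 or 4 read pairs. Over 10 Mb there were 12 hub contacts, 0 of them in the EpiSC list and 2 in the Nanog-/- list.

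By gene family, Hox and keratin genes held the most hubs for their number, where 4.80% of all baits with a contact were hubs. Of 31 Hox baits with a contact, 15 were hubs (48.4%, 32.0 to 65.2): Hoxa6, Hoxb1, Hoxb2, Hoxb3, Hoxb8, Hoxb9, Hoxb13, Hoxc4, Hoxc5, Hoxc6, Hoxc8, Hoxc10, Hoxc11, Hoxc12 and Hoxd3. They kept 60.1% of 542 contacts in EpiSCs and 66.1% in Nanog-/- ESCs, with a median RNA level of 0.105 RPKM in WT ESCs, 0.379 in EpiSCs and 0.525 in the Nanog-/- line. Keratin and keratin-associated genes had 32 of 86 (37.2%), kept 34.6% and 44.9%, and had a median RNA level of 0 in all 3 groups. Protocadherins, adhesion proteins of neurons, had 8 of 26 (30.8%), mostly in the clustered Pcdhb genes, and kept 41.6% and 32.8%. Among developmental regulators, Pax had 2 of 9 (Pax2 and Pax9), forkhead 4 of 34, Wnt 2 of 19, T-box 1 of 13 (Tbx1) and homeobox genes outside Hox 7 of 93. No Sox (16) or Gata (5) bait was a hub, with intervals up to 19.4% and 43.4% that include the share of 4.80%. Histone genes had 2 of 30, zinc finger genes 12 of 271, vomeronasal receptors 1 of 56, olfactory receptors 9 of 591 (1.52%) and ribosomal proteins 0 of 78. Predicted or unnamed genes had 128 of 2437 (5.25%), and 591 hub names were in no family. Intervals of the forkhead, Wnt, T-box, other homeobox, histone, zinc finger, vomeronasal and predicted groups also include 4.80%.

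RNA of hub genes was lower than that of other baited genes in each group. Of the 814 hub names, 682 (83.8%) were in the RNA table. Their median was 1.74 RPKM in WT ESCs (95% interval 1.12 to 2.44), 3.31 in EpiSCs (1.89 to 4.84) and 1.88 in the Nanog-/- line (1.39 to 2.68). Genes of the other baits with a contact had medians of 4.27, 9.002 and 4.52 RPKM. Under 1 RPKM in WT ESCs were 307 hub genes (45.0%) and 36.8% of the others, and 235 hub genes (34.5%) were under 1 RPKM in all 3 groups. Of the hub genes, 194 reached 10 RPKM in WT ESCs (28.4%; 38.9% of the others). With genes under 1 RPKM in all groups left out, the hub median in WT ESCs was 7.14 RPKM. By number of partners, the WT median was 2.20 RPKM at 25 to 34, 1.42 at 35 to 49 and 0.557 at 50 or more, with 3.33 at 20 to 24. Raising the hub threshold to 30 or more partners did not lower the median, which was 1.81 RPKM. The median at 50 or more partners rests on 65 genes and has a wide interval, 0.182 to 3.25.

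**Figure D5:**
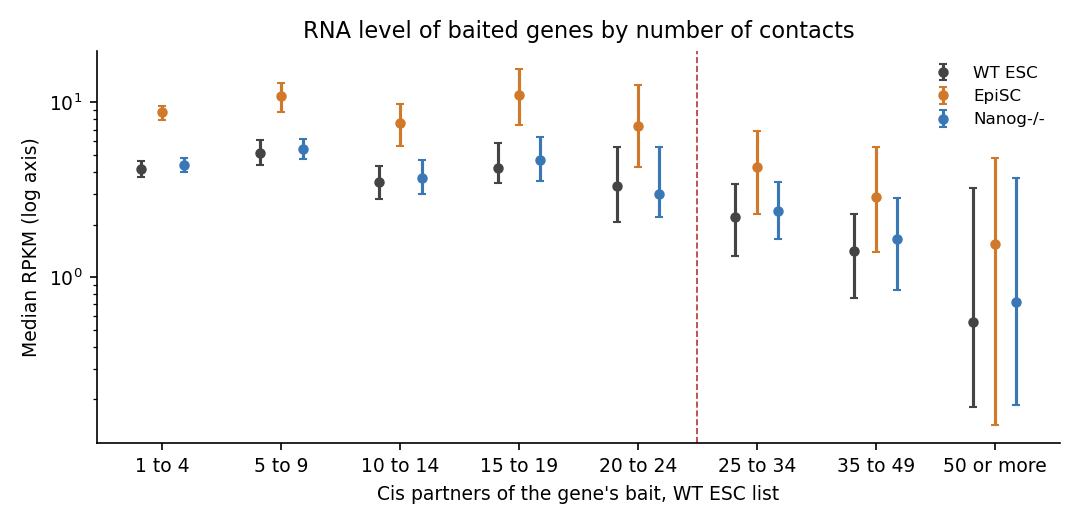
Median RPKM of baited genes (log axis) by the number of cis partners of the gene's bait in WT ESCs, for WT ESC, EpiSC and Nanog-/- RNA; bars are 95% order-statistic intervals over genes and the dashed line separates hubs at the right. The WT medians lie between 3.33 and 5.16 to the left of the line and between 0.557 and 2.20 to its right.

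Differences of RNA between groups were taken on log2 of RPKM plus 1 and called at 2-fold. In EpiSCs 203 of 682 hub genes were higher by 2-fold or more (29.8%; background 30.1% of all 15646 genes) and 33 were lower (4.84%; background 5.78%). After subtracting the general shift of 0.85, 68 were higher (9.97%; background 9.95%) and 101 were lower (14.8%; background 14.4%). The shift was measured on genes at 1 RPKM or more, and among the 447 hub genes that reach this in any group, 68 were higher (15.2%; 14.1% of all such genes) and 72 lower (16.1%; 16.0% of all), so the other lower calls are of genes under 1 RPKM in every group. Hub shares lay near the background either way. The median log2 difference was 0.44 for hub genes and 0.46 for all genes, or -0.41 for hub genes after the subtraction. Over the 447 hub genes at 1 RPKM or more in any group it was 0.074 after the subtraction. In Nanog-/- ESCs 8 hub genes were higher (1.17%; background 1.69%) and 9 lower (1.32%; background 1.35%), with a median difference of 0.023 against 0.0090 for all genes; on subtracting 0.068 the hub median was -0.045, or 0.026 over the 447 genes. The RNA table holds 1 value per group, so no difference was tested.

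The hub gene with the highest RNA level in WT ESCs, Eef1g, a translation elongation factor gene, had 1477 RPKM in WT ESCs, 1597 in EpiSCs and 1420 in the Nanog-/- line. Eif5a had 1276, 1392 and 1361, and Ube2s, a ubiquitin-conjugating enzyme gene, had 1062, 1303 and 1210. Fkbp3, an immunophilin gene, had 662, 769 and 618 RPKM while its bait went from 30 partners to 10 in EpiSCs and 7 in Nanog-/- ESCs. Gapdh, the glycolytic enzyme gene, had 1016 RPKM in WT ESCs, 119 in EpiSCs and 1033 in the Nanog-/- line, with 28, 32 and 23 partners. Such genes have near-identical pseudogenes, so how their reads were assigned could affect these values. The assignment was not stated, and its part in these values was not tested.

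Of the 5 hub genes with the largest differences upward in EpiSCs, Igf2, an imprinted growth factor gene, had 9.74 RPKM in WT ESCs, 229 in EpiSCs and 22.8 in the Nanog-/- line, a log2 difference in EpiSCs of 4.42, or 3.57 after the shift. Its bait had 26, 33 and 25 partners. Smoc2, a matrix protein gene, had 0.332, 18.2 and 0.206 RPKM, and Ccnd2, cyclin D2, had 10.4, 153 and 6.90. The homeodomain genes Pknox2 and Meis3 had 0.632 and 1.86 RPKM in WT ESCs and 21.6 and 35.3 in EpiSCs, while their baits had fewer partners there, 25 against 47 and 12 against 34. Higher RNA thus came with more partners for Igf2, Smoc2 and Ccnd2 and with fewer for Pknox2 and Meis3.

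Among the genes lower in EpiSCs, Tcfap2c, the AP-2 gamma factor of trophoblast and germ cells, had 32.8 RPKM in WT ESCs, 1.12 in EpiSCs and 15.4 in the Nanog-/- line, a log2 difference in EpiSCs of -3.99, or -4.84 after the shift. Its bait had 33, 27 and 27 partners and kept 22 of its contacts in EpiSCs. Gm17511 had 33.8, 0.773 and 27.5 RPKM, Gm8894 had 11.2, 0.630 and 10.5, and Slc4a5, a bicarbonate transporter gene, had 10.8, 0.708 and 2.41. Slc4a5 was low in both other cell types while its bait had 26 partners in WT ESCs, 31 in EpiSCs and 34 in the Nanog-/- line. Gapdh completes the 5.

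Differences in Nanog-/- ESCs were smaller. Phlda1 had 5.51 RPKM in WT ESCs and 20.1 in Nanog-/- ESCs, Thbs2, thrombospondin 2, had 3.25 and 11.4, Rhob, a small GTPase gene, had 24.2 and 66.6, and Synpo2l had 0.352 and 2.43. Each of these 4 was also higher in EpiSCs, from 3.68 RPKM for Synpo2l to 145 for Rhob, also after the shift, by a log2 difference of 0.94 for Synpo2l to 2.01 for Phlda1. Fewer partners in Nanog-/- ESCs were listed for each, such as 32 against 56 for Thbs2 and 24 against 28 for Rhob. Of all 815 hub baits, only 86 (10.6%) had more partners there than in WT ESCs. Lower in Nanog-/- ESCs were Ldhc, the testis lactate dehydrogenase gene, with 5.32 and 0.359 RPKM, Fgf18, a growth factor gene, with 7.56 and 1.37, Slc4a5, the pepsinogen gene Pga5 with 5.35 and 1.30, and Gm1679 with 2.74 and 0.751. In EpiSCs Ldhc, Fgf18, Slc4a5 and Gm1679 were also lower than in WT ESCs. Pga5 was higher there, at 17.7 RPKM, a log2 difference of 1.56, or 0.71 after the shift. The Ldhc bait kept 6 of 30 contacts in Nanog-/- ESCs and 8 in EpiSCs.

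Contacts kept and RNA differences were set side by side for the 682 hub genes, ranked by the share of contacts kept in EpiSCs. The 227 genes with the lowest shares (4.35% to 40%) had a median log2 RNA difference in EpiSCs of 0.26, the next 227 had 0.47, and the 228 with the highest shares (56.8% to 93.8%) had 0.54, all before the shift of 0.85 is taken off. Higher by 2-fold or more were 57, 65 and 81 genes (30.1% of all genes), and lower were 5, 13 and 15 (5.78%). These counts were not repeated after taking off the shift. Ranked by the share kept in Nanog-/- ESCs, the 3 medians there were 0.0017, 0.012 and 0.051. Higher there were 3, 2 and 3 genes (1.69% of all genes), and lower were 5, 2 and 2 (1.35%). Genes of a cluster share contacts and are not independent, and the relation was not tested.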

How the data were processed

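The authors mapped PCHi-C reads to GRCm38/mm10 with HiCUP and called contacts with CHiCAGO, and their processing notes name Bowtie 1.1.0, Trim Galore, TopHat and DESeq2. The deposited lists give read counts (counts of read pairs per contact) and the CHiCAGO score, for 1 combined list per cell type built from biological replicates. The paper states that replicates were normalized when combined. How this bears on the listed counts and their sums was not examined. The deposited RNA table gives RPKM as the median of each group. Its fold change and test columns of the authors' comparisons were not used. A pair listed from both ends was kept 1 time with its higher read count and score. Kept means the same fragment pair is in the other list. A contact absent from a list may have a score under 5. Differences are log2 of RPKM plus a pseudocount of 1, called at 2-fold. Shares carry Wilson 95% intervals and medians order-statistic 95% intervals over contacts or genes, which cover counting error only and no replicate error. No test was run.

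Genes described by name were taken from the 20 hubs with the most partners, the 5 with the highest and lowest share kept in each list, the 5 hub genes with the highest WT RPKM, the 5 with the largest difference in each direction in EpiSCs and Nanog-/- ESCs, members of the 5 clusters with the most hubs, and hub genes on the marker, Polycomb and loop architecture lists, and not every gene these choices give is described. Families were read from gene symbols. Members and lists were chosen with earlier results of these data known. Gene positions and promoters came from RefSeq. Python 3.11.15, numpy 2.4.6, pandas 2.3.3, scipy 1.17.1, matplotlib 3.10.9 and networkx 3.6.1 were used, and the code was tested on simulated data. Alternatives covered score, reads, runs, distance, bait pairs, the hub threshold, window, pseudocount, low-value filter and centring.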

Additional observations from a re-analysis of the deposited data

How the results depend on the processing

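No paired analysis was possible because the contact lists are pooled over replicates and RNA is given as group medians, so no replicate could be left out. Of 48 alternatives, 12 left a result within its interval or within 1.5 times its count, 34 moved it and 2 reversed its sign. Centring with a low-value filter was chosen after seeing the data. Where fewer contacts or genes were counted, the hub number moved by construction, and for the other results the cause was not tested.

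The number of hubs, 815, was 154 with scores of at least 7, 441 with at least 10 reads, 152 with adjacent partners as 1, 371 without pairs of baits, 505 without pairs under 50 kb, 1364 at 20 or more partners, 509 at 30 or more, and 454 in the Nanog-/- list. The share kept in EpiSCs, 48.6%, was 47.8% with at least 10 reads, 50.7% without bait pairs, 65.7% with the adjacent fragment allowed, 57.5% from the EpiSC side and 49.4% at 30 or more partners. The share kept in Nanog-/- ESCs, 52.4%, was 53.5% with scores of at least 7, 45.6% with at least 10 reads, 51.3% without bait pairs, 47.1% without pairs under 50 kb, 69.1% with the adjacent fragment, 69.6% from the Nanog-/- side and 53.6% at 30 or more partners. Nanog-/- ESCs thus kept more than EpiSCs except with at least 10 reads or without pairs under 50 kb (48.4% in EpiSCs). Baited partners, 24.9%, were 26.3% with scores of at least 7, 22.3% with at least 10 reads and 23.5% without pairs under 50 kb. Hubs near another, 86.3%, were 88.7% at 20 or more partners and 80.6% within 500 kb. The median distance, 153 kb, was 117 kb with at least 10 reads and 170.3 kb without bait pairs. The WT median RPKM was 7.14 with the low-value filter. The EpiSC difference, 0.44, was 0.68 with a pseudocount of 0.1, 0.92 with the filter, -0.41 centred and 0.074 centred and filtered. The Nanog-/- difference, 0.023, was 0.065 with a pseudocount of 0.1, 0.094 with the filter and -0.045 centred. The CG ratio, 0.594 in the 484 promoters found, was 0.292 over whole baits.

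Fewer read pairs stood behind the EpiSC and Nanog-/- lists than behind the WT list. These sums cover called contacts only and do not measure library depth. The part of depth in the contacts not kept was not tested. Cell line, strain and culture cannot be told apart from state in EpiSCs, each state is 1 line, and pooled values give no spread between replicates.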
